A study of Mus musculus with 6 samples.

Results

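The transcripts described here encode splicing regulators: SR proteins and SR-related proteins with their kinases (23 genes), hnRNP proteins (17 genes) and other RNA-binding regulators of splicing (15 genes), 55 of the 21938 protein-coding genes annotated in mouse. A peak was assigned to a member when its summit, the base of highest read density, lay inside the span of the gene on GRCm38 (mm10). By this rule 42 of the 55 members held at least 1 peak, and 155 of the 10748 deposited peaks were theirs, 139 from eCLIP and 16 from input libraries. The deposited lists are far shorter than the peak sets the study describes, so a gene without a peak here is one without a peak in these lists.

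The study asked which RNAs are contacted by STRAP, a WD40-repeat protein linked to the SMN complex. RNA was crosslinked to protein by UV light, immunoprecipitated with an antibody against STRAP and sequenced as eCLIP, in which short RNA fragments left around the crosslinked protein become reads, called tags here. The embryo libraries came from wild-type C57BL/6 embryos at prenatal day 9.5, as the labels give it. The study describes pools of 7 embryos and in that place gives their stage as E9.0. The EB libraries came from 9-day-old embryoid bodies, aggregates grown from wild-type embryonic stem cells of the C57BL/6 strain without LIF and then in N2B27 with 10 ng/ml bFGF for 5 days. Each tissue had 2 eCLIP libraries, numbered 1 and 2, and 1 size-matched input, which is RNA of the same gel size range without the antibody. No library of cells lacking STRAP was used here, so both the eCLIP and the input libraries are from cells that have the protein. The study calls the EBs biological replicates.

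The 4 eCLIP libraries held between 136935 and 228422 tags after filtering and the inputs 6289516 and 6825190. An input thus held far more tags, which need not mean deeper sequencing, and peaks of a few tags were called only in eCLIP. Peaks of the embryo eCLIP libraries lay in 5 of 5 embryonic and adult globin genes and in 4 of 7 neural markers (Nes, Tubb3, Map2, Nnat). Those of the EB eCLIP libraries lay in 3 of 4 pluripotency markers (Pou5f1, Nanog, Dppa5a), in Sox2 alone of the neural markers and in no globin gene, and no pluripotency marker (0 of 4) had an embryo eCLIP peak. Heart and muscle markers did not separate the tissues: eCLIP peaks lay in 1 of 4 in embryos (Actc1) and in 1 of 4 in EBs (Ttn). No visceral endoderm marker (0 of 3) had a peak in either tissue. The EB input had peaks in Nnat and in the globin gene Hba-x. EB eCLIP-2 was called with a fragment size of 76, against 200 in the other 5 libraries. Its peaks were narrower and its summits often lay elsewhere. In bulk libraries such as these, fewer cells of a type and less RNA per cell cannot be told apart.

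SR proteins carry RNA recognition motifs and a domain rich in arginine and serine. Bound to purine-rich exonic enhancers, they recruit the spliceosome to nearby splice sites, and kinases of the CLK family phosphorylate them. The hnRNP proteins are abundant nuclear RNA-binding proteins, many of which repress splice sites and package nascent transcripts. Transcripts of both families are themselves regulated by splicing: many contain ultraconserved poison exons or retained introns whose use lowers the amount of the encoded protein, and the protein often binds its own transcript.

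The following windows show the RNA at the members' peaks that no input peak overlapped, outside UTRs, 1 per member, taken in order of the number of eCLIP libraries and then of the tags. Each runs 5′ to 3′ on the strand of the gene, from 60 nt before the summit with the most tags, at base 61, to 120 nt after it. Capitals mark the motifs that were searched: the purine hexamer GAAGAA, the purine hexamer GAGGAG, their mixed forms GAAGAG and also GAGGAA, the repeat GCAGCA, and the pyrimidine motifs CTCCTCC and likewise CTTCTTC. The sequence is that of GRCm38 in RefSeq.
Hnrnpu: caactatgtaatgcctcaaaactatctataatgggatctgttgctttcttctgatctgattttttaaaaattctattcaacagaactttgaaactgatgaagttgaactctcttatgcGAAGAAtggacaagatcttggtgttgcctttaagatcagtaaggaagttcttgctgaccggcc
Rbm25: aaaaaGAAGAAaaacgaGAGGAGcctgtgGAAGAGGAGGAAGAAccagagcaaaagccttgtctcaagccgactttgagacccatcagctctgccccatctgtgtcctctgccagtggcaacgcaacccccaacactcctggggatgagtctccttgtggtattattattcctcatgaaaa
Hnrnpm: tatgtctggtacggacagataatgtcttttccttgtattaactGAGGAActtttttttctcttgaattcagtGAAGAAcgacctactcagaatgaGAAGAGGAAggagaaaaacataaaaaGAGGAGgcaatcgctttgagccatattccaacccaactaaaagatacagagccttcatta
Srsf11: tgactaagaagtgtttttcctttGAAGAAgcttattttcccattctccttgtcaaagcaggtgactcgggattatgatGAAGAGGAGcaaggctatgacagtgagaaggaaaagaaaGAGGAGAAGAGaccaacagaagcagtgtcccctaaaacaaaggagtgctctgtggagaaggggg
Acin1: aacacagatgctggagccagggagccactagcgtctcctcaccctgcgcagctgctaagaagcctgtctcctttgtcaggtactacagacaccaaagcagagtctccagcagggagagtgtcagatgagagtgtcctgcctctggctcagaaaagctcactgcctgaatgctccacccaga
Hnrnpc: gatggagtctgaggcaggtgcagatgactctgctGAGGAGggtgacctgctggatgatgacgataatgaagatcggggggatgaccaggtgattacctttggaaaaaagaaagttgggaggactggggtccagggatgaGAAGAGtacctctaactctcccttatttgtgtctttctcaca
Qki: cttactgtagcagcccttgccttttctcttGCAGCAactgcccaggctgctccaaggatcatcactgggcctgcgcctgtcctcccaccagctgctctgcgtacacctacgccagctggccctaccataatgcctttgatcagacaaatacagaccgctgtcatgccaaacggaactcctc
Arglu1: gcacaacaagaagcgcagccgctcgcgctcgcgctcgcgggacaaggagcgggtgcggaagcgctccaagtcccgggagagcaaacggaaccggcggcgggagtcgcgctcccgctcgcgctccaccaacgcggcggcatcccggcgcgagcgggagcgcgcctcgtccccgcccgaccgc
The Hnrnpu window (chr1:178332259-178332439, minus strand) runs from intron into exon, which starts at base 84. The Hnrnpm window (chr17:33677331-33677511, minus strand) has the same layout, with the exon from base 72, and so has the Srsf11 window (chr3:158012080-158012260, minus strand), with the exon from base 58. In Qki (chr17:10216289-10216469, minus strand) the exon starts at base 11. The windows of Rbm25 (chr12:83674421-83674601, plus strand), Acin1 (chr14:54664785-54664965, minus strand) and Arglu1 (chr8:8690081-8690261, minus strand) lie wholly in exon, and that of Hnrnpc (chr14:52075162-52075342, minus strand) is exon up to base 88. Purine hexamers occurred 6 times in the Rbm25 window, 5 times each in those of Hnrnpm and Srsf11, 2 times in Hnrnpc, 1 time in Hnrnpu and 0 times in Acin1, Qki and Arglu1, overlapping matches counted separately. The Arglu1 window stands out by a GC content of 75.7%.

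Peaks were found in many more of these genes than in protein-coding genes at large. A peak in at least 1 eCLIP library was present in 41 of the 55 members (74.5%; 95% Clopper-Pearson interval 61.0 to 85.3%), against 10.6% of all protein-coding genes. By role, 20 of 23 genes of the SR group (87.0%), 11 of 17 hnRNP genes (64.7%) and 10 of 15 other regulators (66.7%) had one. A list of 51 further splicing regulators outside the set gave 29 (56.9%). A peak in all 4 eCLIP libraries was present in 8 members (14.5%), against 1.06% of all genes: Srrm2 and Acin1 of the SR group, Hnrnpd and Hnrnpu of the hnRNPs, and Rbm25, Rbm39, Qki and Sfpq. Of the outside list 1 of 51 genes had peaks in all 4. When peaks scoring below 100 were dropped (the score is minus the log10 of the caller's p, multiplied by 10), the count in at least 1 library fell from 41 to 11, against 2.01% of all genes, and that in all 4 from 8 to 0, against 0.378%. No test was made of these shares, because the members were chosen with results of these data known, and the abundance of the transcripts, which bears on how many tags a gene can give, was not measured in these libraries and its part was not tested.

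**Figure D1:**
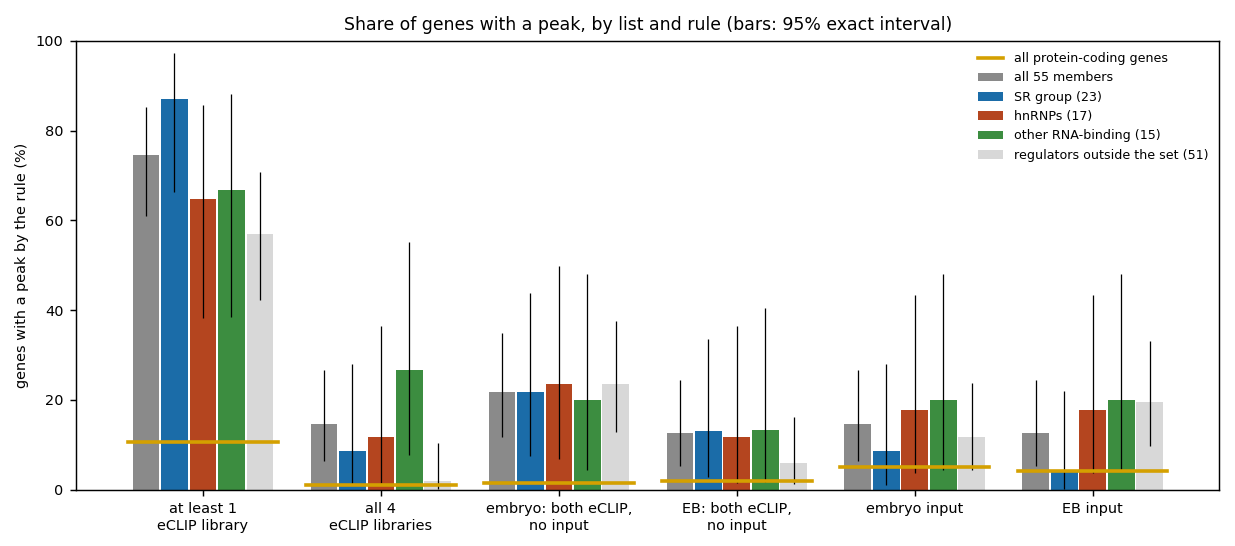
Share of genes (%) with a peak under 6 rules, for the 55 members, their 3 role groups and 51 regulators outside the set. Bars are shares with 95% exact binomial intervals and the yellow lines are the shares of all 21938 protein-coding genes. The members' share is 74.5% for a peak in at least 1 eCLIP library against a line at 10.6%, while the intervals of the 3 role groups overlap each other under each of the 6 rules.

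The members' share of all peaks separated eCLIP from input. It was 2.69% (39 of 1449; 95% Clopper-Pearson interval 1.92 to 3.66%) in embryo eCLIP-1 and 2.75% (36 of 1309; 1.93 to 3.79%) in embryo eCLIP-2, against 0.288% (8 of 2780; 0.124 to 0.566%) in the embryo input. In EBs it was 1.67% (21 of 1256; 1.04 to 2.54%) and 2.20% (43 of 1955; 1.60 to 2.95%), against 0.400% (8 of 1999; 0.173 to 0.787%) in the input. In each tissue the intervals of both eCLIP libraries lay above that of the input. These intervals cover counting error only and treat peaks of 1 gene as independent, which they are not. The members were chosen with results of these data known, so the separation is a description and not support. The input also held more tags, which changes what can be called. The members' peaks held more tags than the typical peak of the same eCLIP library (medians of 10, 8.5, 9 and 5 tags in embryo eCLIP-1 and -2 and EB eCLIP-1 and -2, against 5, 7, 5 and 4 over all peaks). Their median fold over the background of the library was lower (21.1, 16.1, 17.5 and 23.2, against 30, 27.8, 28.6 and 49.3). The fold compares a peak with its own library, not with the input.

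Within each tissue, a stricter rule asked for a peak in both eCLIP libraries and none in the input. In embryos 12 of 55 members met it (21.8%), against 1.59% of all protein-coding genes. They were Srsf1, Srsf11, Srrm2, Son and Arglu1 of the SR group, Hnrnpm, Hnrnpr, Hnrnpu and Hnrnpul2 of the hnRNPs, and Rbm25, Rbm39 and Nono. Among genes that had any embryo peak the share was 12 of 34 members (35.3%), against 15.6%, and the outside list gave 12 of 51. In EBs 7 of 55 members met it (12.7%), against 1.95%: Srrm1, Tra2a and Acin1 of the SR group, Hnrnpc and Hnrnpk, and Rbm25 and Rbm39. Among genes with any EB peak this was 7 of 32 (21.9%), against 18.5%, a share near the background. Rbm25 and Rbm39 met the rule in both tissues. The rule counts a gene and not a place. The embryo libraries shared no region in Son and Hnrnpr, and the EB libraries shared none in Tra2a, Acin1, Hnrnpk and Rbm39. The Hnrnpr summit of embryo eCLIP-1, with 3 tags, also lies in Gm27022. When only summits in no other gene were used, Hnrnpr and Srsf1 left the embryo list and Acin1 joined it. This gave 11 members, against 1.26% of all genes. Acin1 left the EB list, which gave 6, against 1.55%. Without peaks scoring below 100, 5 members met it in embryos, against 0.442% of all genes, and 0 in EBs, against 0.419%. The 5 were Hnrnpd, Hnrnpm, Hnrnpu, Qki and Rbm25. Hnrnpd and Qki are not among the 12 above and entered because the filter also dropped their embryo input peaks. Where a library was left out, a peak in 1 library sufficed and counts and background rose together: the embryo count was 20 without embryo eCLIP-1 (3.20% of all genes), and the EB count was 19 without EB eCLIP-1 (5.01%) and 13 without EB eCLIP-2 (3.30%).

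Input peaks were also more frequent in the members than in genes at large. The embryo input had one in 8 of 55 members (14.5%), against 4.97% of all genes. The EB input had one in 7 (12.7%), against 4.17%. Of the 11 members concerned, Hnrnpd, Hnrnpl, Qki and Sfpq had one in both inputs. Those of Hnrnpf, Acin1, Rbfox2 and Pnn came from embryos, and those of Srrm2, Hnrnpu and Khsrp from EBs. Hnrnpf, which binds G-rich RNA, had peaks nowhere else: its 16 tags in the embryo input lay in intron 1.

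**Figure D2:**
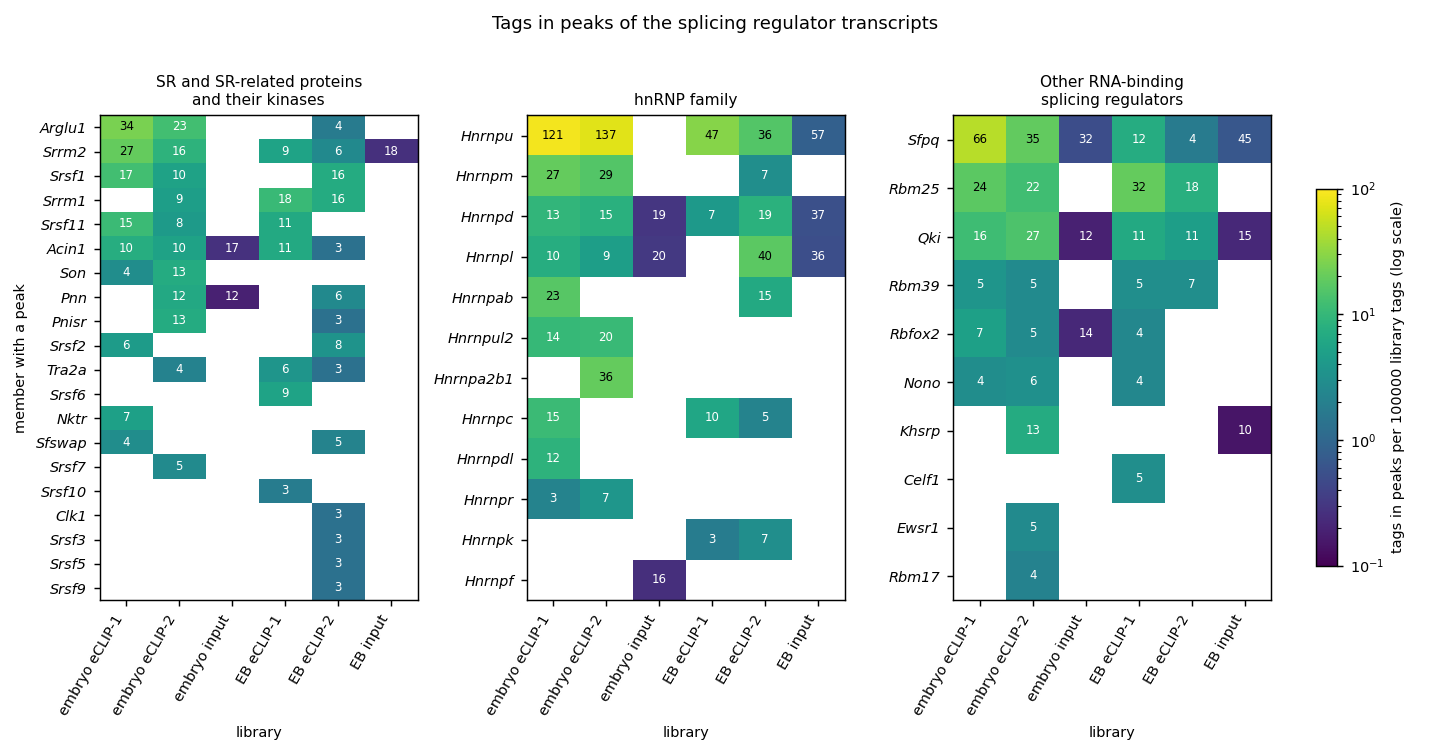
Tags in peaks of the 42 members with a peak (vertical axis, by role group) in each of the 6 libraries (horizontal axis). Colour gives tags in peaks per 100000 library tags on a log scale, numbers give the tags and blank cells had no peak. Hnrnpu holds 121 and 137 tags in the embryo eCLIP libraries, and Srsf3, Srsf5, Srsf9 and Clk1 have a peak in EB eCLIP-2 alone, with 3 tags each.

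Among the SR-related genes, Arglu1 had an embryo-heavy pattern. Its protein, rich in arginine and glutamate, modulates splicing and transcription. Its peaks held 34 and 23 tags in embryo eCLIP-1 and -2, 0 in EB eCLIP-1, 4 in EB eCLIP-2 and 0 in both inputs, or 24.8, 12.4, 0 and 1.75 tags per 100000 library tags in the 4 eCLIP libraries. Both embryo libraries lay above both EB libraries. The embryo tags fell in 3 regions that both replicates shared, in exons 1, 2 and 4 of 4 (9 and 10, 11 and 6, and 14 and 7 tags in eCLIP-1 and -2). The 4 EB tags lay in the exon 1 region (chr8:8689993-8690658).

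Srrm2 and Son are large proteins that scaffold nuclear speckles, where splicing factors are stored. Srrm2 peaks held 27 and 16 tags in the embryo eCLIP libraries, 9 and 6 in the EB eCLIP libraries, and 0 and 18 in the embryo and EB inputs (19.7, 8.64, 5.44 and 2.63 per 100000 in eCLIP). The tissues did not share a region: the embryo tags lay in the 5′ UTR (15, in eCLIP-1) and in exon 9 of 15 (12 and 16), the EB tags in exon 4 (9 and 6) and the input tags in exon 12. Son held 4 and 13 tags in the embryo eCLIP libraries and no EB peak, with its 2 peaks in exons 2 and 3, so the replicates shared the gene and not the place.

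Srrm1, an SR-related coactivator of splicing, showed the opposite order of tissues. It held 0 and 9 tags in embryo eCLIP-1 and -2, 18 and 16 in EB eCLIP-1 and -2 and 0 in both inputs (0, 4.86, 10.9 and 7.005 per 100000). Its EB regions included exon 14 of 17 in both libraries (11 and 8 tags), and exon 9 was shared by embryo eCLIP-2 and EB eCLIP-1 (9 and 7 tags). All 6 of its peaks lay in coding exons.

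Srsf1, a founding member of the SR family, held 17 and 10 tags in the embryo eCLIP libraries, 0 in EB eCLIP-1, 16 in EB eCLIP-2 and 0 in the inputs (12.4, 5.40, 0 and 7.005 per 100000). Exon 1 (chr11:88047583-88048656, plus strand) held 17, 10 and 8 of these tags, with the embryo summits in its 5′ UTR and the EB summit in its coding part. The EB summit lay 65.5 nt further toward the 3′ end and is from EB eCLIP-2, so tissue and library cannot be told apart. Summits in exon 1 also lie in the annotated gene Gm11508, and the peaks carry no strand. The other 8 tags of EB eCLIP-2 were in the 3′ UTR. Srsf11, an SR-related protein of the early spliceosome, held 15, 8 and 11 tags in embryo eCLIP-1, eCLIP-2 and EB eCLIP-1 and none elsewhere, all in 1 region at the start of its last exon, exon 13 (chr3:158011687-158013010). Acin1, a subunit of the ASAP complex that joins exon junction complexes, held 10, 10 and 11 tags in the same libraries in coding exon 6 of 19, which is 1263 nt long (chr14:54664476-54665608, minus strand). Its 3 tags in EB eCLIP-2 lay in exon 1 and its 17 tags in the embryo input in exon 19, where other genes overlap.

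The other genes of the SR group gave few eCLIP tags or none, at most 18 over the 4 eCLIP libraries (Pnn). Srsf2 had 6 tags in embryo eCLIP-1 and 8 in EB eCLIP-2 in exon 2, which overlaps Mettl23. Pinin (Pnn), a speckle protein of the PSAP complex, had 12 tags in embryo eCLIP-2 and 6 in EB eCLIP-2 in its last exon, where the embryo input had 12. Per library tag, the embryo eCLIP-2 peak was 34.0-fold above that input peak (95% interval 14.0 to 82.7 from counting error). This is near the median of 29.1 over the 240 overlapping pairs of that library in the series. Tra2a, a homologue of the Drosophila splicing regulator Transformer-2, had 4, 6 and 3 tags in embryo eCLIP-2, EB eCLIP-1 and EB eCLIP-2. Srsf3, Srsf5, Srsf6, Srsf7, Srsf9, Srsf10, Nktr and the kinase Clk1 had peaks of 3 to 9 tags in a single library each. Sfswap, a homologue of the Drosophila suppressor of white-apricot, had 4 tags in embryo eCLIP-1 and 5 in EB eCLIP-2, both in exon 12 of 18. Pnisr, a serine- and arginine-rich nuclear protein, had 13 tags in embryo eCLIP-2 and 3 in EB eCLIP-2, at different exons. Srsf4, Tra2b and Clk4 had no peak. At 3 tags, the lowest in these eCLIP lists apart from embryo eCLIP-2 with 4, a gene with fewer reads was not detectable.

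Hnrnpu held more tags than any other member over the 4 eCLIP libraries together. It encodes a nuclear matrix protein, also called SAF-A, that binds RNA and chromatin. Its peaks held 121 and 137 tags in the embryo eCLIP libraries, 47 and 36 in the EB eCLIP libraries, and 0 and 57 in the embryo and EB inputs, or 88.4, 74.0, 28.4 and 15.8 per 100000 in eCLIP. Both embryo values lay above both EB values. These tags are not scaled by gene length and give no transcript level. One region, chr1:178329856-178332569 on the minus strand, spans coding exons 7 to 13 of 14 and the introns between them. It held 61, 78, 23 and 20 tags in the 4 eCLIP libraries and no input peak. A second region covers exon 1 (chr1:178336794-178337911), with 60, 59, 24 and 8 eCLIP tags, and there the EB input had a peak of 57 tags. The remaining 8 tags of EB eCLIP-2 lay in exon 3. Set against the EB input peak per library tag, the exon 1 peak of EB eCLIP-1 was 17.4-fold higher (95% interval 10.3 to 28.4 from counting error) and that of EB eCLIP-2 4.19-fold (1.73 to 8.83). Over all overlapping pairs of the series the medians were 23.3 and 17.4. The peaks differ in width (178337469-178337752 in EB eCLIP-2 and 178336750-178337889 in the input), so these are not ratios over the same bases.

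Hnrnpm encodes a protein that binds GU-rich RNA and regulates alternative exons. Its peaks held 27 and 29 tags in the embryo eCLIP libraries, 0 in EB eCLIP-1, 7 in EB eCLIP-2 and 0 in the inputs (19.7, 15.7, 0 and 3.06 per 100000), so both embryo libraries lay above both EB libraries. The region at exon 2 (chr17:33677270-33677634) held 8, 22 and 4 tags. In embryo eCLIP-2 its 22 tags gave a rate of 11.9 per 100000 (95% interval 7.45 to 17.99) and a score of 256.08. All 6 embryo summits of Hnrnpm were intronic and lay 5 to 80 nt before the start of an exon, while both EB eCLIP-2 summits lay in the exons 2 and 6 themselves. In these shared regions the summits of EB eCLIP-2, called with the smaller fragment size, lay 105 and 131 nt further toward the 3′ end. Tissue and library therefore cannot be told apart in this contrast.

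Hnrnpd, also called AUF1, binds AU-rich elements in 3′ UTRs and promotes mRNA decay. It held 13 and 15 tags in the embryo eCLIP libraries, 7 and 19 in the EB eCLIP libraries, and 19 and 37 in the embryo and EB inputs. Exon 1 accounted for 13, 15, 7 and 6 of the eCLIP tags (chr5:99978192-99979063, minus strand) and for all the input tags. Against the input peaks, the exon 1 peaks were 31.4-, 26.8-, 7.80- and 4.85-fold higher per library tag. The medians of such pairs over the series were 31.3, 29.1, 23.3 and 17.4, and the peaks compared differ in width. The remaining 13 tags, in coding exon 7 and the 3′ UTR, were in EB eCLIP-2 alone. Gm17092 overlaps exon 1.

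Hnrnpl, which binds CA-rich RNA, held 10 and 9 tags in the embryo eCLIP libraries, 0 in EB eCLIP-1, 40 in EB eCLIP-2, and 20 and 36 in the embryo and EB inputs (7.30, 4.86, 0 and 17.5 per 100000 in eCLIP). The EB replicates were therefore the lowest and the highest of the 4. The 40 tags were spread over exons 2, 9, 11 and 14, of which exons 2 and 14 had EB input peaks. Hnrnpab held 23 tags in embryo eCLIP-1 and 15 in EB eCLIP-2 and no peak in the other replicate of either tissue. Its 3′ UTR and intron 5 summits also lie in Phykpl.

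Hnrnpc, which binds uridine tracts and counters the use of cryptic exons, held 15, 10 and 5 tags in embryo eCLIP-1, EB eCLIP-1 and EB eCLIP-2 in 1 region over exons 8 and 9 (chr14:52074659-52075888). Hnrnpul2, a relative of Hnrnpu, held 14 and 20 tags in exon 1 in the embryo eCLIP libraries and none in EBs. Hnrnpa2b1 held 36 tags in embryo eCLIP-2 and none in embryo eCLIP-1. Hnrnpk, a KH-domain protein that binds C-rich RNA, held 3 and 7 tags in EBs at different places and none in embryos. Hnrnpdl and Hnrnpr completed the hnRNP genes with eCLIP peaks, the first with 12 tags in embryo eCLIP-1 and the second with 3 and 7 tags in the embryo libraries. Ptbp1, Ptbp2, Hnrnpa1, Hnrnpa3 and Hnrnph1 had no peak. Genes with processed copies elsewhere, such as Hnrnpa1, Hnrnpa3, Hnrnpk and Srsf3, have uncertain counts: the study's methods describe uniquely mapped reads, which are lost where copies are identical, and also give an aligner setting of up to 30 places per read, under which copies share reads.

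Of the other RNA-binding regulators, Rbm25 and Rbm39 had peaks in all 4 eCLIP libraries and in no input. Rbm25 encodes a PWI-domain protein that associates with splicing factors and affects alternative 5′ splice sites. Its peaks held 24 and 22 tags in the embryo eCLIP libraries, 32 and 18 in the EB eCLIP libraries and 0 in both inputs, and its rates of 17.5, 11.9, 19.3 and 7.88 per 100000 overlapped between tissues. Exon 15 of 19, a coding exon of 325 nt (chr12:83674180-83675501, plus strand), held 17, 17, 22 and 9 tags, with rates of 12.4 (95% interval 7.23 to 19.9), 9.18 (5.35 to 14.7), 13.3 (8.33 to 20.1) and 3.94 (1.80 to 7.48). A region in the 3′ UTR (chr12:83681414-83682586) was found only in the EB libraries, with 10 and 9 tags, and single embryo peaks of 7 and 5 tags lay in exons 2 and 14. Rbm39, a U2AF-like protein, held 5, 5, 5 and 7 tags and no input peak. In 3 of the 4 libraries (5, 5 and 3 tags) these lay where intron 4 meets exon 5 (chr2:156167560-156167933).

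**Figure D3:**
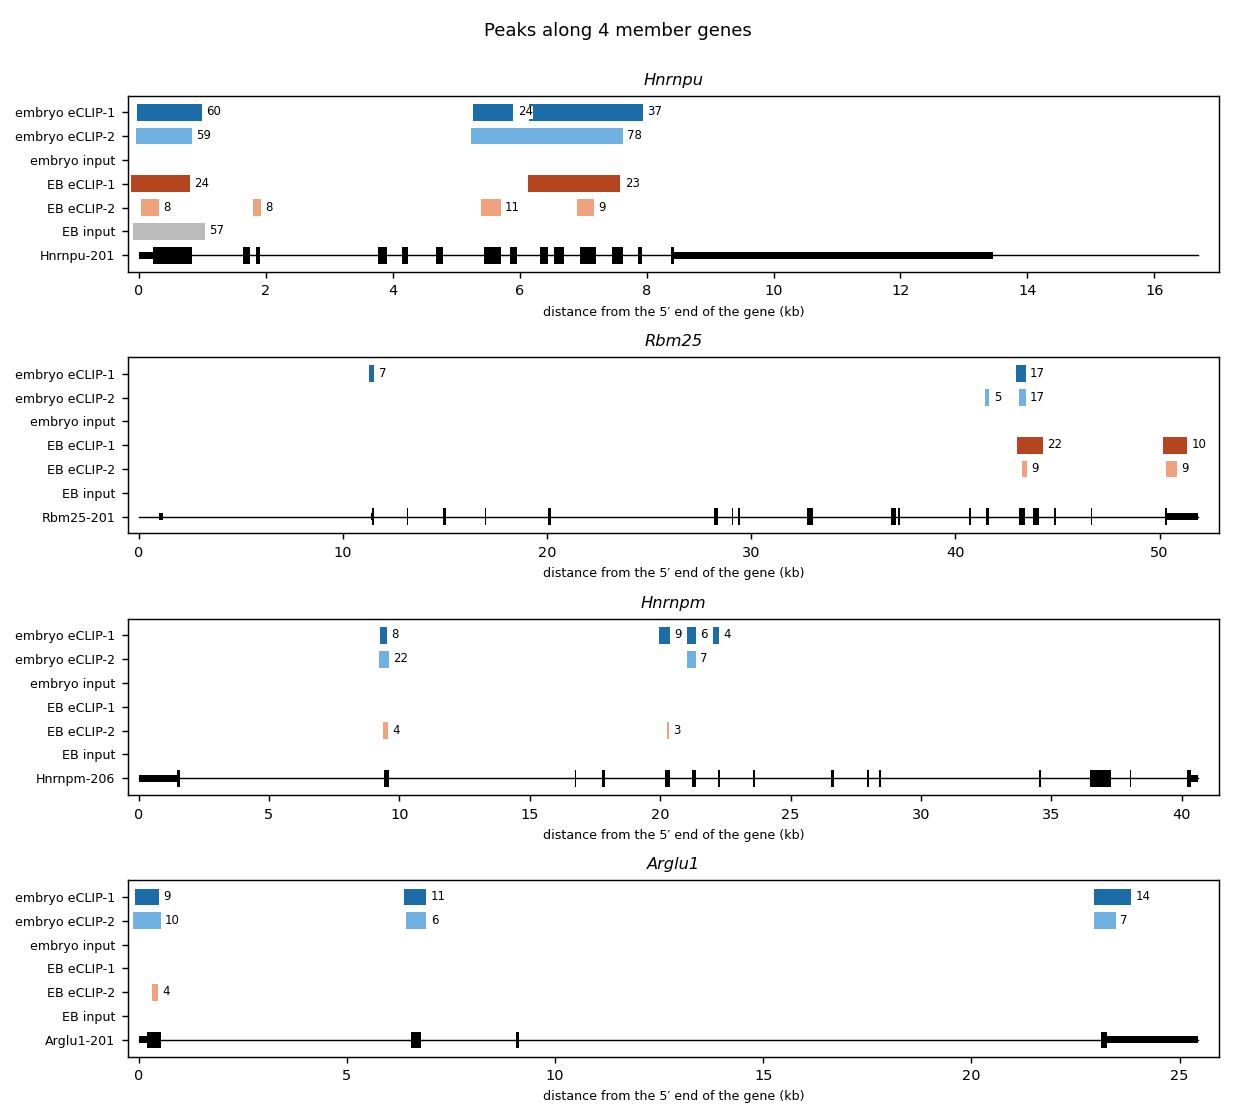
Peaks of the 6 libraries (rows, coloured boxes with their tags) along Hnrnpu, Rbm25, Hnrnpm and Arglu1, with the distance from the 5′ end of the gene in kb on the horizontal axis. The bottom row of each panel shows 1 transcript, with coding exons as tall and UTRs as low boxes. Exon 15 of Rbm25 has a peak in all 4 eCLIP libraries (17, 17, 22 and 9 tags), and the EB input peak of 57 tags lies on exon 1 of Hnrnpu.

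Sfpq and Nono encode partner proteins of paraspeckles, nuclear bodies built on a long noncoding RNA. Sfpq peaks held 66 and 35 tags in the embryo eCLIP libraries, 12 and 4 in the EB eCLIP libraries, and 32 and 45 in the inputs (48.2, 18.9, 7.25 and 1.75 per 100000 in eCLIP, with both embryo values above both EB values). The region over exon 1 (chr4:127021212-127022260) held 33, 35 and 12 of the tags and both input peaks. Its eCLIP peaks were 47.4-, 37.2- and 10.99-fold above the input peaks per library tag, against medians of 31.3, 29.1 and 23.3 over the series. Peaks of 13 and 20 tags over exon 7 and intron 8 were found in embryo eCLIP-1 alone. Nono held 4, 6 and 4 tags in embryo eCLIP-1, eCLIP-2 and EB eCLIP-1, all in exon 3 (chrX:101437139-101437436).

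Qki, annotated as Qk, encodes a KH-domain protein that controls splicing in glia and muscle. It held 16 and 27 tags in the embryo eCLIP libraries, 11 and 11 in the EB eCLIP libraries, and 12 and 15 in the inputs (11.7, 14.6, 6.64 and 4.82 per 100000 in eCLIP, the embryo values above the EB values). Around exon 6 (chr17:10216163-10216633), 6, 12 and 7 tags of embryo eCLIP-1, eCLIP-2 and EB eCLIP-2 had no input peak. At exon 1 (chr17:10318664-10319394) embryo eCLIP-2 had 7, EB eCLIP-1 11 and EB eCLIP-2 4 tags, where the EB input had 15. Another place, in intron 1, held 6 and 8 tags in embryos alone. Rbfox2, which binds UGCAUG and regulates neural and muscle exons, held 7, 5 and 4 tags in embryo eCLIP-1, eCLIP-2 and EB eCLIP-1, each peak at a different place, and 14 in the embryo input in intron 1. Khsrp, a KH-domain protein of mRNA decay, held 13 tags in embryo eCLIP-2 and 10 in the EB input, both in the last exon. Ewsr1, Rbm17 and Celf1 had 4 or 5 tags in 1 library each. Rbm5, Rbm10, Tardbp, Mbnl1 and Mbnl2 had no peak.

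Between tissues, the members more often had both embryo libraries above both EB libraries than the reverse. Of the 41 members with an eCLIP peak, 11 (26.8%) had the first pattern in tags per 100000, against 15.1% of the 2331 protein-coding genes with an eCLIP peak: Arglu1, Srrm2, Son, Hnrnpm, Hnrnpr, Hnrnpu, Hnrnpul2, Rbfox2, Qki, Sfpq and Nono. Srrm1 and Hnrnpk alone had the second (4.88%), against 11.7%, and 28 members overlapped between tissues. With 2 libraries against 2, the smallest two-sided p of an exact permutation test is 0.333, so no gene was tested. Leaving out a library raised the first count and its background together, to 18 (35.0% of genes) without embryo eCLIP-1, 22 (40.2%) without embryo eCLIP-2 and 14 without either EB library (18.9% and 21.3%). It likewise raised the second count from 2 to 7 without EB eCLIP-1 (39.5% of genes), to 7 without EB eCLIP-2 (33.0%) and to 4 without embryo eCLIP-1 (16.6%). Once peaks scoring below 100 were dropped, 11 members were left with an eCLIP peak. Of these, 5 had the first pattern (Hnrnpd, Hnrnpm, Hnrnpu, Qki and Sfpq), against 29.8% of genes, and 0 the second, against 13.2%. Hnrnpd did not have the first pattern before the filter. When only summits in no other gene were used, Hnrnpr lost the first pattern, which 10 members then had, against 14.3% of genes. EB eCLIP-2 was called with a different fragment size, and its part in these orders was not tested.

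Merged where they overlapped, the members' eCLIP peaks formed 84 regions, of which 34 (40.5%) were held by at least 2 libraries, against 1143 of 3856 (29.6%) over the whole series. Of the 34, 19 were held by 2, 11 by 3 and 4 by all 4 libraries, and 7 (20.6%) lay on an input peak, against 26.9% over the series. The 4 regions of all libraries were those of Hnrnpu (2), Rbm25 exon 15 and Hnrnpd exon 1. Where an eCLIP and an input peak overlapped in a member, the ratio of tags per library tag had a median of 39.4 in embryo eCLIP-1 (n = 2), 30.4 in embryo eCLIP-2 (n = 4), 14.2 in EB eCLIP-1 (n = 4) and 7.97 in EB eCLIP-2 (n = 5). Over the series these medians were 31.3, 29.1, 23.3 and 17.4. Each ratio compares the tags of whole peaks, which differ in width, and the narrower peaks of EB eCLIP-2 make its ratios unlike those of the other libraries.

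Most member summits lay in exons. In coding exons the shares were 56.4% and 55.6% in embryo eCLIP-1 and -2 (mean 56.0% ± 0.604, SD, n = 2) and 47.6% and 65.1% in EB eCLIP-1 and -2 (56.4% ± 12.4, SD, n = 2). Summits in other protein-coding genes gave 44.8%, 43.6%, 36.2% and 43.6%. The input summits of members lay in coding exons in 4 of 8 cases in each tissue, against 4.68% and 8.17% in other genes. Fisher's exact test, two-sided, of coding exon or not against the input found no difference in any eCLIP library (p = 1, 1, 1 and 0.450, adjusted p = 1 for all 4 after Benjamini-Hochberg correction), and 0 of 4 passed without adjustment. With 8 input summits this test has little power, it compares libraries, and the peaks of 1 gene are not independent. Introns took 23.1% and 22.2% of the embryo and 14.3% and 11.6% of the EB eCLIP summits. In other genes these shares were 30.0%, 29.3%, 39.7% and 30.9%.

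**Figure D4:**
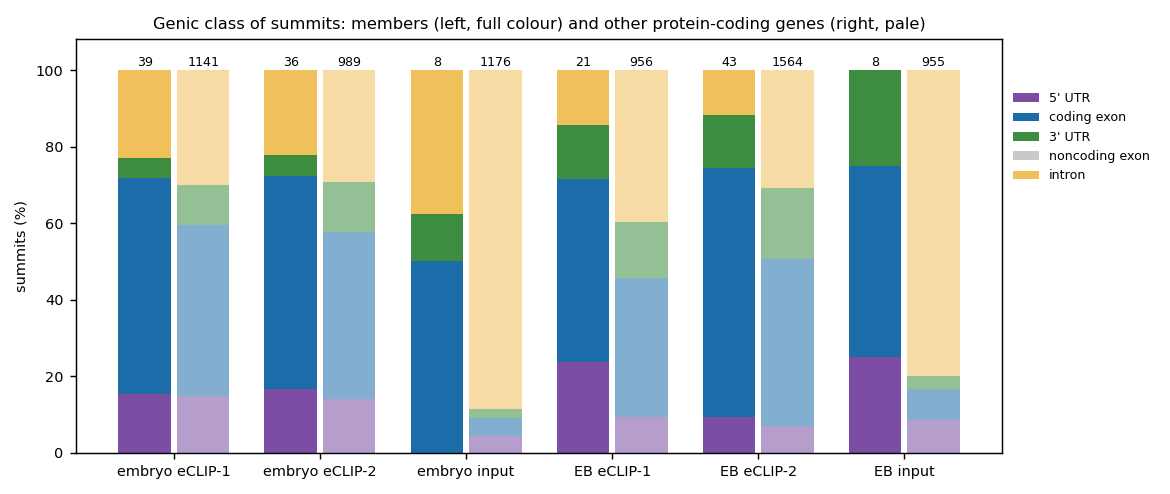
Genic class of summits (% of summits, stacked) in each library, for members (left, full colour) and other protein-coding genes (right, pale). Numbers above the bars are summits. Coding exons take 47.6 to 65.1% of the members' eCLIP summits, and introns take 88.5% and 80.0% of the input summits in other genes but 3 of 8 and 0 of 8 of those in members.

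The introns that held member summits were met near their ends. Of 25 intronic eCLIP summits in members, 22 (88%) lay within 100 nt of an annotated exon, at a median distance of 34 nt over all 25. In other protein-coding genes 471 of 1495 (31.5%) did, with a median of 1012 nt. Of the 22, 21 lay upstream of the exon, on the side of the 3′ splice site, and 1, in Sfpq intron 8, downstream. By library 9 of 9, 8 of 8, 2 of 3 and 3 of 5 lay within 100 nt in embryo eCLIP-1, embryo eCLIP-2, EB eCLIP-1 and EB eCLIP-2, against 48.5%, 42.4%, 27.4% and 16.1% in other genes. Hnrnpm supplied 6 of the 25. None of the 3 intronic input summits in members (Hnrnpf, Rbfox2 and Qki) lay that close (0 of 3, against 4.71% in other genes). Of 712 introns of the members, 704 (98.9%) began with GT and ended with AG.

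The summits of EB eCLIP-2, alone called with the smaller fragment size, lay apart from those of the other eCLIP libraries. In 22 regions shared with another library, they were shifted by a median of 54 nt toward the 3′ end (range -418 to 380 nt, in that direction in 19). The fragment size cannot be told apart from other traits of this library. When the summits of the 3 eCLIP libraries called at 200 were moved by 62 nt, which is 0.5 times the difference in fragment size, toward the 3′ end of the gene, 16 of their 20 intronic member summits (80%) fell in an exon. In other genes 308 of 1012 (30.4%) did. By library these were 8 of 9, 8 of 8 and 0 of 3. Both the limit of 100 nt and this shift were chosen after seeing the data.

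**Figure D5:**
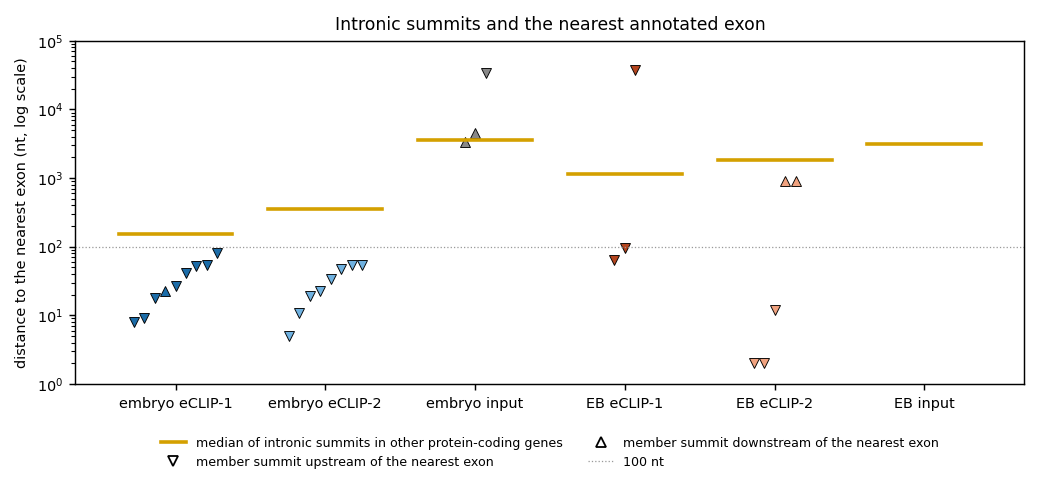
Distance of intronic member summits to the nearest annotated exon (nt, log scale) in each library. Triangles pointing down lie upstream and triangles pointing up downstream of that exon, and yellow lines are medians of intronic summits in other protein-coding genes. All 17 embryo eCLIP summits lie below the dotted line at 100 nt and the 3 embryo input summits lie above it.

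Exons that only transcripts annotated as targets of nonsense-mediated decay use, such as poison exons, held none of the members' eCLIP summits (0 of 139; 95% Clopper-Pearson interval 0 to 2.62%), against 12 of 4650 (0.258%) in other genes, a share too low for this number of summits to show a difference. The eCLIP peaks themselves overlapped such sequence in Srrm2 (109 and 224 bp in embryo eCLIP-1 and -2), Hnrnpdl (146 bp in embryo eCLIP-1) and Qki (14 bp in embryo eCLIP-2). Of the 55 members, 36 (65.5%) have such a transcript in the annotation, against 20.8% of protein-coding genes. Introns that only retained-intron transcripts include held 4 of 139 (2.88%; 0.790 to 7.20%), 1 in Hnrnpu and 3 in Rbm39, against 1.94% in other genes. Retained-intron transcripts are annotated for 44 of 55 members (80%), against 41.6%. Both intervals treat the summits as independent, although libraries share places and peaks of 1 gene are not independent.

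Purine-rich hexamers, the kind of sequence that many SR proteins bind, were searched on the strand of the gene in the 200 nt around each summit. At least 1 of the 4 hexamers was present at 78 of 139 member eCLIP summits (56.1%; 95% Clopper-Pearson interval 47.5 to 64.5%) and at 41.5% of 4783 summits in protein-coding genes. By library the shares were 59.0%, 58.3%, 47.6% and 55.8%, against 48.8%, 44.0%, 38.2% and 36.5%. The intervals by library were 42.1 to 74.4%, 40.8 to 74.5%, 25.7 to 70.2% and 39.9 to 70.9%. Only the last, of EB eCLIP-2, lay above its background. The pooled interval counts a place once for each library with a peak there. It also treats peaks of 1 gene as independent, which they are not, so it is too narrow. The input summits of members gave 7 of 16 (43.8%), against 34.4%. GCAGCA was present at 16.5% of member eCLIP windows, against 11.7%, CTCCTCC at 7.91%, against 6.48%, and CTTCTTC at 4.32%, against 2.28%. A match of any of these was found in 71.2% of member eCLIP windows, against 52.9%, and in 11 of 16 member input windows (68.8%), against 47.7%. The median GC content of the members' eCLIP windows was 48%, 49%, 51.5% and 45.5%, against 50.5%, 52%, 51.5% and 50% over all windows in protein-coding genes. For the 8 member windows of each input it was 47.3% in embryos, against 48%, and 71.5% in EBs, against 48.5%. In the windows printed above, Rbm25 exon 15 has its hexamers before the summit, and Srsf11 and Hnrnpm have most of theirs inside the exon. A match is a description of the letters and does not show that a factor binds there.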

How the data were processed

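STRAP eCLIP and size-matched input were measured in mouse embryos and EBs, in 6 libraries. Per the submitters' processing notes and the study's methods, the authors used bcl2fastq 2.18.0.12 to demultiplex, cutadapt to trim, STAR 2.5.2b to remove repeats and align to GRCm38 (mm10, Gencode M11), and MACS 1.4.2 to call peaks. The deposited headers give a p cutoff of 1e-05 and name no control library, whereas the study's methods describe calling against the input with other thresholds, so these lists are not the study's final peak sets. The deposited tags are the read count of a peak, not scaled between libraries. The deposited score is minus the log10 of the caller's p-value, multiplied by 10. The deposited fold is a ratio of the tags to the background of the same library, over 10000 bp or less, not of the input. The highest fold is 131.58 in EB eCLIP-2 and at most 50 elsewhere. The total tags of each library were taken from the deposited headers and set the precision of each value. Peaks carry no strand, and 17 of 155 member summits lie in another gene too.

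Summits were assigned to genes of Gencode M21, in which Qki is Qk. Of 52 listed outside regulators 51 were found. Tags were scaled per 100000 library tags, with exact Poisson intervals. Peaks overlapping by 1 bp or more were merged into regions. Python 3.11.15, numpy 2.4.6, scipy 1.17.1 and matplotlib 3.10.9 were used. A two-sided Fisher's exact test compared coding exon shares with the input, with the Benjamini-Hochberg correction over 4 eCLIP libraries and a threshold of 0.05. Gene and class assignment (391 of 391 simulated summits) and merging (400 of 400 pairs) were tested on simulated data. Values in every library are given for the first 12 members by summed eCLIP tags per 100000, for members with peaks in all 4 eCLIP libraries and for those with an input peak. The alternatives were a score of at least 100, a fold above 5, summits in no other gene, summits moved by 62 nt, input peaks that do not overlap, an overlap of 50%, coding exon taken first, windows of 100 nt and leaving out each eCLIP library. The members and lists were chosen with earlier results of these data known. The study's RNA-seq and other experiments were not analysed here.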

Additional observations from a re-analysis of the deposited data

How the results depend on the processing

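No paired analysis was possible because each tissue has a single input, which shares fewer than 2 replicate numbers with the eCLIP libraries, and because the counts of members come from no test. With peaks of a score of at least 100 alone, the members with both eCLIP libraries and no input fell from 12 to 5 in embryos and from 7 to 0 in EBs, those with at least 1 eCLIP library from 41 to 11, those with all 4 from 8 to 0, shared regions from 34 to 5, members with embryos above EBs from 11 to 5 and those with EBs above embryos from 2 to 0, and intronic summits near an exon from 22 of 25 to 3 of 3. Hnrnpd was among the 5 members of both the no-input and the tissue-order count in embryos, though in neither count without the filter. Qki likewise entered the no-input count, because the filter also drops input peaks. Under that filter the coding exon difference against the input turned from 5.98 to -43.8 percentage points in embryos. In EBs it turned from 6.37 to -50 (Fisher's exact test, adjusted p = 1 for both). The filter dropped the input summits of Hnrnpd, Hnrnpf, Hnrnpl, Acin1 and Rbfox2 in embryos and those of Hnrnpl in EBs. These differences therefore rest on fewer than the 8 input summits of each tissue. Moved summits gave 12 of 15 near an exon, a count not made for other genes. Windows of 100 nt gave a motif share of 46.8%, against 34.8% of all windows in protein-coding genes. At 200 nt these were 71.2% and 52.9%. Leaving out 1 eCLIP library gave 12 to 20 members in embryos (20 without embryo eCLIP-1), against 1.59 to 3.64% of all genes. It gave 7 to 19 in EBs (19 without EB eCLIP-1, 13 without EB eCLIP-2), against 1.95 to 5.01%. A peak in at least 1 library was left in 36 to 39 members, against 8.20 to 9.57% of all genes. Peaks in all libraries that remained were found in 9 to 12, against 1.22 to 1.39%. Shared regions numbered 22 to 30 (22 without embryo eCLIP-1 or EB eCLIP-2). Coding exon differences were 5.56 to 6.41 in embryos and -2.38 to 15.1 in EBs (negative without EB eCLIP-2). Embryos lay above EBs in 14 to 22 members (18 without embryo eCLIP-1, 22 without embryo eCLIP-2), against 18.9 to 40.2% of genes. EBs lay above embryos in 3 to 7 (2 with all libraries, 7 without either EB library), against 14.8 to 39.5%. Intronic summits near an exon numbered 13 to 20. The cause was not tested, apart from the fewer peaks or libraries that these settings use. Of 43 values of comparisons under settings that kept all libraries, 31 stayed within the limits set, and named members kept 33 of 48, with 12 of the 15 that moved under the score filter. Among the members' peaks, 0 had a fold of 5 or less, so the alternative of a fold above 5 could not move any value. Its values are counted among those that stayed, and both tallies overstate how stable the results are. The alternatives for the tissue orders and the intronic summits were chosen after seeing the data. The depth of 3 to 78 tags per member eCLIP peak limits each value.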
